A study of Mus musculus with 2 samples.

Results

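The genes described here encode the platelet-derived growth factors (PDGF) with their receptors, and the receptor KIT with its ligand. They were taken by symbol from the deposited table of RPKM values (reads scaled to transcript length and to library size): the 4 PDGF ligand genes Pdgfa, Pdgfb, Pdgfc and Pdgfd, the receptor genes Pdgfra and Pdgfrb, Kit, and its ligand gene Kitl. All 8 were found among the 22740 genes of the table. The study sequenced polyadenylated RNA from the whole uterus of 2 C57BL/6 mice on day 4 of pregnancy, 1 library per animal, titled WT and called uterus 1 and uterus 2 here. The labels give 1 group, no treatment, no genotype contrast and no age. The data therefore give the level of each gene and the difference between 2 animals, and no comparison between conditions.

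PDGFs are secreted dimers that bind receptor tyrosine kinases on mesenchymal cells. PDGFRα is typical of fibroblasts and stromal progenitors, whereas PDGFRβ is typical of pericytes and vascular smooth muscle. KIT belongs to the same structural class of receptors and is best known from mast cells, melanocytes, germ cells, blood progenitors and the pacemaker cells of the gut. In the uterus of early pregnancy the stroma prepares to form the decidua and vessels in it grow, and both mesenchymal receptors are in common use as markers of these compartments.

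The number of reads behind each RPKM value was recovered from the values and from annotated transcript lengths. It summed to 3830795 in uterus 1 and 4260806 in uterus 2. The smallest reads that the values alone allow summed to 3487503 and 3874963. RNA from the main uterine compartments was present: the lowest mean was 50.9 RPKM among 6 fibroblast and stroma markers, 152 RPKM among 5 smooth muscle markers, 17.1 RPKM among 5 endothelium markers and 25.6 RPKM among 5 epithelium markers. The exact binomial test described further on called Acta2 of the smooth muscle list higher in uterus 1, Myh11 of that list and Krt18 of the epithelium list higher in uterus 2, and none of 4 leukocyte markers. It called 4.7% of all genes tested and 21.0% of those with at least 1000 reads in sum, as Acta2 and Myh11 have. Ovary markers had means of 0.287 RPKM for Cyp11a1, on 3 and 1 reads, to 8.21 RPKM for Foxl2. Which tissue these reads came from was not tested. In whole tissue, fewer cells of a type and less RNA per cell cannot be told apart. Counting intervals below are exact 95% Poisson intervals, or exact binomial ones for a ratio, and cover counting error only. Every recovered read is counted as a separate molecule. Any PCR copies among the reads would make the intervals too narrow and the p-values of the test too small.

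Each of the 8 genes was detected, meaning at least 1 RPKM, in both uteri, against 58.4% of all genes. Levels ran from 5.67 RPKM for Pdgfb in uterus 1 to 141.6 RPKM for Pdgfra in uterus 2. The summed level of the 8 genes was 248.6 RPKM in uterus 1 and 249.5 RPKM in uterus 2, and Pdgfra made up 55.1% ± 2.39 (SD, n = 2) of it.

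**Figure D1:**
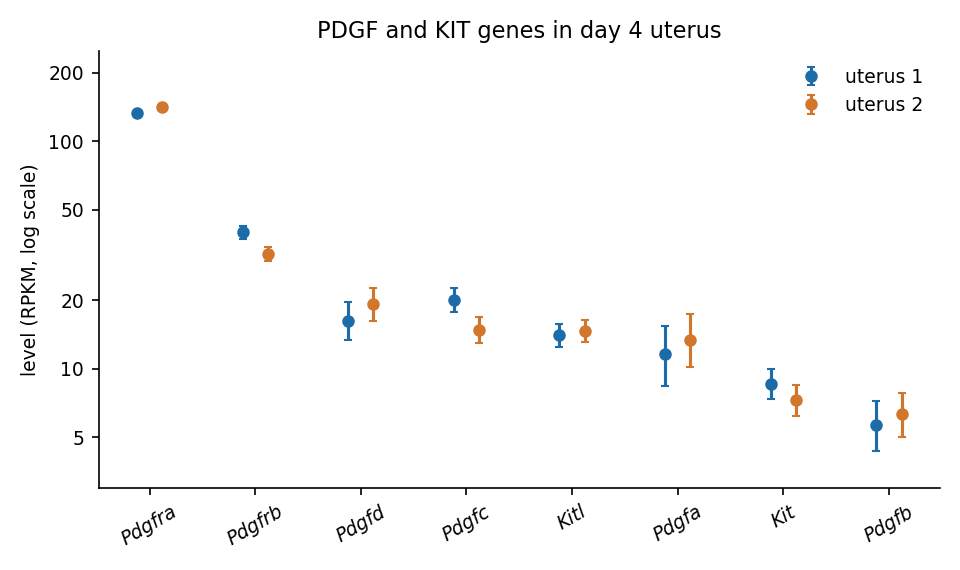
Level of each gene in RPKM on a log axis, ordered by mean; points are the single libraries of uterus 1 and uterus 2, and bars are exact 95% Poisson counting intervals. Pdgfra lies at 132.7 and 141.6 RPKM and Pdgfrb between 32.1 and 39.8, whereas the 4 ligand genes, Kitl and Kit lie between 5.67 and 20.1.

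Pdgfra, which encodes the receptor for PDGF-A, PDGF-B and PDGF-C chains, was the highest of the genes. It measured 132.7 RPKM in uterus 1 (counting interval 128.3 to 137.2, 3427 reads) and 141.6 RPKM in uterus 2 (137.3 to 146.0, 4060 reads), a mean of 137 ± 6.31 RPKM (SD, n = 2). It ranked 308 of 22740 genes, above 98.6% of them. Pdgfra (NM_011058) lies at chr5:75548316-75594229 on the plus strand of mouse build mm9 (NCBIM37).

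Pdgfrb encodes the receptor that binds PDGF-B and PDGF-D chains. It measured 39.8 RPKM in uterus 1 (37.1 to 42.6, 825 reads) and 32.1 RPKM in uterus 2 (29.8 to 34.5, 739 reads), so the 2 counting intervals did not overlap. Its mean of 35.9 ± 5.43 RPKM (SD, n = 2) ranked 1821. Pdgfra was 3.34 times as high as Pdgfrb in uterus 1 and 4.41 times as high in uterus 2, a mean log2 difference of 1.94 ± 0.28 (SD, n = 2). Pdgfrb (NM_008809) lies at chr18:61204804-61244721 on the plus strand.

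Among the ligands, Pdgfc and Pdgfd were the highest. Both encode chains with an N-terminal CUB domain that proteases remove before the factor can bind. Pdgfc (NM_019971, chr3:80840338-81017953, plus strand) measured 20.1 RPKM in uterus 1 (17.7 to 22.6, 270 reads) and 14.9 RPKM in uterus 2 (13.0 to 16.9, 222 reads). Pdgfd (NM_027924, chr9:6168612-6377519, plus strand) measured 16.3 RPKM (13.4 to 19.6, 112 reads) and 19.2 RPKM (16.3 to 22.6, 147 reads). Pdgfc was the higher of the pair in uterus 1 and Pdgfd in uterus 2, with log2 differences of 0.30 and -0.37 for Pdgfc over Pdgfd, so the data give no order between them. Pdgfd is the 1 member whose span holds another gene of the table, Ddi1 on the opposite strand, at 2.23 and 1.70 RPKM, and the use of strand in counting is not given in the sources used here.

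Pdgfa and Pdgfb encode the classical chains, which are processed inside the cell. Pdgfa (NM_008808, chr5:139452929-139470907, minus strand) measured 11.6 RPKM in uterus 1 (8.43 to 15.5) and 13.4 RPKM in uterus 2 (10.2 to 17.4). These values rest on 45 and 58 reads, the fewest of the 8 genes, over a recovered transcript length of 1015 bases. Pdgfb (NM_011057, chr15:79826306-79845238, minus strand), a ligand typical of endothelium and of the megakaryocyte lineage, was the lowest of the 8 at 5.67 RPKM (4.37 to 7.25, 64 reads) and 6.31 RPKM (4.995 to 7.86, 79 reads). Pdgfa was 2.04 times as high as Pdgfb in uterus 1 and 2.13 times in uterus 2.

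The 4 ligand genes summed to 53.6 RPKM in uterus 1 and 53.8 RPKM in uterus 2. Pdgfd held 33.1% ± 3.79 (SD, n = 2) of this sum, Pdgfc 32.5% ± 6.96, Pdgfa 23.3% ± 2.37 and Pdgfb 11.2% ± 0.798. The PDGF receptor genes summed to 172.4 and 173.7 RPKM, which was 3.22 and 3.23 times the ligand sum. The sums thus differed less between the uteri than the shares of Pdgfc or Pdgfrb within them did.

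Kitl, which encodes stem cell factor in membrane-bound and soluble forms, was higher than its receptor gene in both uteri. It measured 14.0 RPKM in uterus 1 (12.5 to 15.7, 293 reads) and 14.7 RPKM in uterus 2 (13.2 to 16.3, 341 reads). Its mean of 14.4 ± 0.480 RPKM (SD, n = 2) had the smallest relative spread of the 8 genes, 3.34% of the mean. Kit measured 8.61 RPKM (7.37 to 9.999, 171 reads) and 7.30 RPKM (6.22 to 8.52, 161 reads), a mean of 7.95 ± 0.924 RPKM (SD, n = 2). Kitl exceeded Kit 1.63 times in uterus 1 and 2.01 times in uterus 2, and the counting intervals of the genes did not overlap in either library. The table has 1 value per gene, so the splice forms of Kitl were not separated. Kitl (NM_013598) lies at chr10:99478458-99563046 and Kit (NM_021099) at chr5:75971016-76052746, both on the plus strand.

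Ordered by mean, the genes ran Pdgfra, Pdgfrb, Pdgfd, Pdgfc, Kitl, Pdgfa, Kit and Pdgfb. Of the 7 pairs of neighbours in this order, 6 had ranges over the 2 uteri that did not overlap, and Pdgfd and Pdgfc were the exception. With ranges widened to the lowest and highest counting bound of both libraries, 2 pairs stayed apart: Pdgfra from Pdgfrb, and Pdgfrb from Pdgfd. On that basis the order among the 6 lower genes was not resolved between neighbours. Within uterus 1 alone, the counting intervals of Pdgfc and Kitl and those of Kit and Pdgfb did not overlap. Within uterus 2 alone, those of Pdgfa and Kit did not. Each of these pairs overlapped in the other library. No test was run between genes, since 2 values against 2 cannot give an exact permutation p below 0.333.

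None of the 8 genes was 2-fold apart between the uteri, against 2.6% of the 13647 genes whose mean reached 1 RPKM. The ratio used is log2 of uterus 2 over uterus 1 after adding 0.1 RPKM, which understates the change of low genes. A two-sided exact binomial test of the recovered reads, adjusted by Benjamini-Hochberg over 15136 genes, called 2 of the 8 genes at an adjusted p under 0.05, against 4.7% of all genes tested. Both were called higher in uterus 1, as were 2.54% of all genes tested. The share called rose with depth, to 7.91% of genes with at least 200 reads in sum and 21.0% of those with at least 1000. This test compares 2 libraries and not conditions.

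Pdgfrb was higher in uterus 1 by a log2 difference of -0.31 (counting interval -0.45 to -0.16, uterus 2 over uterus 1), or 1.24-fold, with an adjusted p of 0.00134 in the exact binomial test. Of the 1996 genes within 1.5 times its level, 10.9% were at least as far apart. Pdgfc was higher in uterus 1 by -0.43 (-0.70 to -0.17), or 1.35-fold, with an adjusted p of 0.0254 in the same exact test, and 5.38% of 3789 genes of like level were as far apart. The call for Pdgfc rests on the transcript length of 3512 bases, which equals the annotated length. At the smallest reads its values allow, 135 and 111, the adjusted p in the exact test was 0.229.

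The other 6 genes were not called. Their log2 differences were 0.24 for Pdgfd, 0.21 for Pdgfa, 0.15 for Pdgfb, 0.09 for Pdgfra, 0.07 for Kitl and -0.23 for Kit. Pdgfra came nearest, with a counting interval of 0.03 to 0.16 and an adjusted p of 0.0860 in the exact binomial test, and 54.7% of 340 genes of like level were at least as far apart. For Pdgfa, on few reads, the interval was as wide as -0.37 to 0.81, and for Kit the interval was -0.56 to 0.08. A missed threshold does not show that these genes were equal in the 2 animals.

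**Figure D2:**
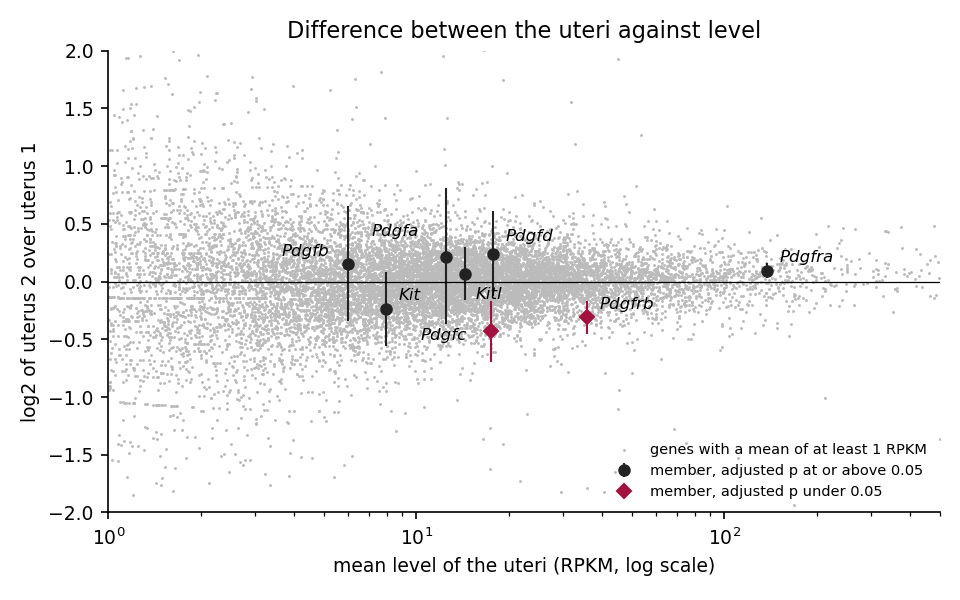
Log2 of uterus 2 over uterus 1 against the mean level (RPKM, log axis); grey points are single genes, of which 161 of 13647 fall outside the drawn axes, and large symbols with exact 95% counting intervals are the PDGF and KIT genes. Pdgfrb (-0.31) and Pdgfc (-0.43), the diamonds, lie below the line of no difference with intervals that do not reach it.

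Markers of pericytes, cells that wrap small vessels and typically carry PDGFRβ, are given beside Pdgfrb. Of 7 pericyte markers, 3 were called higher in uterus 1 and none higher in uterus 2 by the exact binomial test, against 2.54% of all genes called higher in uterus 1. The 3 have more reads than most genes (Cspg4 320 and 272, Notch3 626 and 448, Mcam 729 and 645), and at such depths 7.91% to 21.0% of all genes were called in either direction. The summed level of the list was 298.8 RPKM in uterus 1 and 267.3 RPKM in uterus 2. Notch3, a receptor of mural cells, measured 20.6 and 13.3 RPKM (log2 -0.63, exact test adjusted p 2.35e-10). Mcam measured 65.7 and 52.4 RPKM (-0.33, adjusted p 0.00153), and Cspg4, which encodes the NG2 proteoglycan, 10.4 and 7.94 RPKM (-0.38, adjusted p 0.0322). Rgs5, the highest of the list at 126 ± 3.19 RPKM (SD, n = 2), was not called (-0.05), nor were Cd248 (-0.16), Abcc9 (-0.07) and Kcnj8 (0.11). None of the 7 was listed at 0. The part of these cells in the Pdgfrb difference was not tested.

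GC content and the ratio were weakly related over 12865 genes (rank correlation rho -0.140, across genes that are not independent replicates). Pdgfrb transcripts are 55.1% GC, and genes within 1 percentage point of that had a median log2 difference of -0.03, beside -0.31 for Pdgfrb. Pdgfc is 50.7% GC, and the median of genes like it was -0.0015. The part of GC content in these differences was not tested.

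Stroma markers, listed beside Pdgfra, did not move one way. Of 6 genes, the exact binomial test called Dcn higher in uterus 2 (456.4 and 577.9 RPKM, log2 0.34), and Col1a1 (1184 and 850.7 RPKM, -0.48) and Col1a2 (987.6 and 856.9 RPKM, -0.20) higher in uterus 1. Col3a1 (0.02), Lum (0.07) and Thy1 (-0.16) were not called. The 3 calls stand against 4.7% of all genes tested and 21.0% of those with at least 1000 reads in sum, a depth that each of the 3 exceeds. The list's median log2 difference was -0.07, beside 0.0007 over all genes whose mean reached 1 RPKM.

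Pdgfra and Kit lie next to each other on chromosome 5, followed by Kdr, which encodes a receptor for VEGF. The gap from Pdgfra to Kit spans 376.8 kb and that from Kit to Kdr 276.6 kb, and the table holds no other gene in either gap. Their levels differed nonetheless: Pdgfra was 15.4 times as high as Kit in uterus 1 and 19.4 times in uterus 2. Kdr, at 22.9 and 16.6 RPKM, was called higher in uterus 1 by the exact binomial test (log2 -0.46, adjusted p 0.000192). Upstream of Pdgfra, Chic2 measured 22.2 ± 2.91 RPKM (SD, n = 2), Gm19583 0.267 ± 0.108 RPKM, and the homeobox gene Gsx2 was listed at 0 in both uteri. Pdgfrb has a neighbour of the same receptor class too, Csf1r, the receptor for macrophage colony-stimulating factor, which starts 20.5 kb after it and measured 21.2 ± 2.50 RPKM (SD, n = 2).

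**Figure D3:**
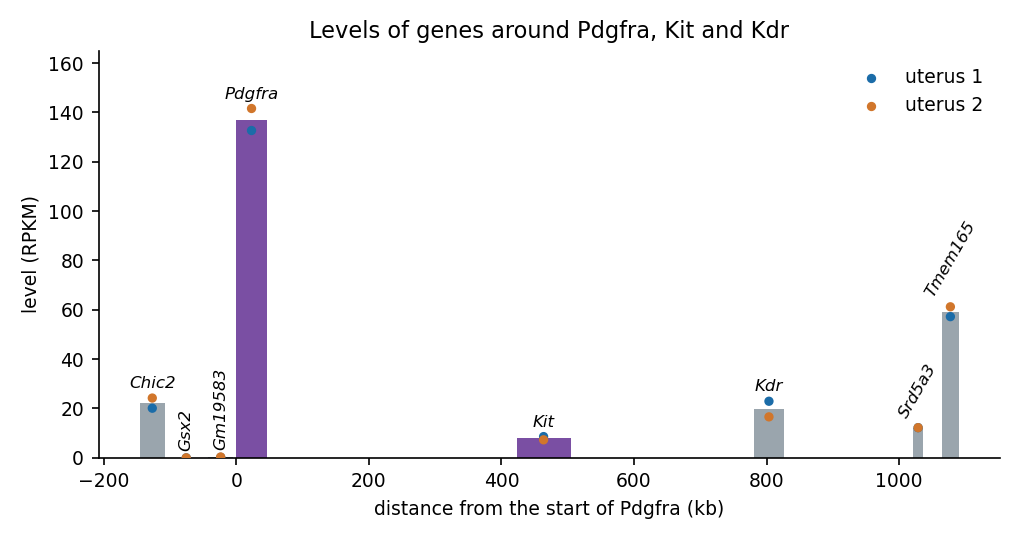
Level (RPKM) of the genes around Pdgfra against distance from its start (kb); bars span each gene and reach the mean, points are uterus 1 and uterus 2, and purple marks Pdgfra and Kit. Pdgfra at 137 RPKM stands beside Kit at 7.95 and Kdr at 19.8, with empty gaps between them.

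The sequences just upstream of the deposited start positions are given for Pdgfra and Kit, and Kitl is added as the ligand of KIT. Whether these windows are the promoters in use was not tested. Each run is the 150 bases before the start on the transcribed strand, read 5′ to 3′ from mm9. Pdgfra is chr5:75548166-75548315, Kit is chr5:75970866-75971015 and Kitl is chr10:99478308-99478457, all on the plus strand. Capitals mark matches to a TATA box (TATAAA), a GC box (GGGCGG) or a CCAAT box (CCAAT) on either strand.

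Pdgfra: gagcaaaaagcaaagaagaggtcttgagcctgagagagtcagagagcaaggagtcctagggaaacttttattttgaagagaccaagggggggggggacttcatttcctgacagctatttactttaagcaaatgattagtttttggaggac

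Kit: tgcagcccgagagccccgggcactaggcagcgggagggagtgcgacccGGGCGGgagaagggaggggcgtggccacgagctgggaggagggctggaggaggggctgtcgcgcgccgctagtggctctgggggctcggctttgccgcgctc

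Kitl: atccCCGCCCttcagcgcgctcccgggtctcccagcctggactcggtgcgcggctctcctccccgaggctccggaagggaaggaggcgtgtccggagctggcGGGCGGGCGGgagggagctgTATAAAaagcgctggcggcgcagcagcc

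The Pdgfra window held no CpG and none of the 3 motifs, and was 44.0% GC. The Kit window held 15 CpGs and 1 GC box, at 75.3% GC, and the Kitl window 17 CpGs at 72.7% GC. Kitl also had 1 TATA box, which starts 28 bases before the deposited start, and 3 GC boxes, of which the pair nearest the start overlap. Over the 22664 windows of the table's genes, the median was 7 CpGs (quartiles 2 and 13), 7.59% held a TATA box, 38.5% a GC box and 26.6% a CCAAT box. Of the other genes, Pdgfa had 16 CpGs and 2 GC boxes, Pdgfd 9 CpGs, Pdgfb 7, Pdgfrb 5 with 1 CCAAT box, and Pdgfc 1. The highest gene had the fewest CpGs, but each gene is read from 1 deposited start and a match is not a bound site. A link between these sequences and the levels was not tested.

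The wider pathway was measured with 4 lists holding 51 genes, of which 50 were detected in both uteri. The exact binomial test called none of them higher in uterus 2 and 1 higher in uterus 1, and that gene was also 2-fold apart. Over all genes 2.54% were called higher in uterus 1 and 2.6% were 2-fold apart, so 1 of 51 is near or below the background. The gene was Plau, which encodes urokinase, a protease able to activate PDGF-D. It measured 10.4 RPKM in uterus 1 on 93 reads and 4.91 RPKM in uterus 2 on 49 reads, a log2 difference of -1.06 (-1.60 to -0.56, exact test adjusted p 0.000956).

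The list for processing the ligands, which also holds the co-receptor gene Nrp1, was detected in full (9 of 9). Plat, which encodes tissue plasminogen activator, the protease that activates PDGF-C, was the highest at 60.5 ± 3.77 RPKM (SD, n = 2). The proprotein convertase gene Pcsk5 followed at 43.8 ± 3.25 RPKM and Nrp1, which encodes a co-receptor, at 35.7 ± 1.43 RPKM. Adam17, whose protein sheds membrane-bound growth factors, measured 21.6 ± 0.270 RPKM. The list's median log2 difference was -0.13, beside 0.0007 over all genes.

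The 21 genes of signalling below the receptors were all detected, from 5.58 to 52.8 RPKM, and none was called. Pik3r1, the regulatory subunit of PI3-kinase that docks on activated PDGF receptors and KIT, measured 52.8 ± 1.49 RPKM (SD, n = 2), the adaptor Shc1 51.9 ± 1.48 RPKM and the adaptor Crk 46.7 ± 0.448 RPKM. Ptpn11, which encodes the phosphatase SHP2, measured 32.7 ± 0.540 RPKM. The 15 genes that restrain the signal ran from 1.99 to 20.5 RPKM, with a median of 8.85 RPKM beside 21.1 RPKM for the signalling list, whose range overlaps theirs. Acp1 was highest at 20.5 ± 1.24 RPKM, followed by Ptpn1 at 16.8 ± 1.99 RPKM, the ubiquitin ligase gene Cbl at 15.6 ± 1.67 RPKM and Dusp6 at 14.6 ± 1.92 RPKM. None of these 15 was called either.

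Relatives of the receptors and ligands were mostly low. After Csf1r, the ligand gene Csf1 measured 8.42 ± 0.107 RPKM (SD, n = 2), Pdgfrl, which encodes a receptor-like protein without a kinase, 5.44 ± 1.20 RPKM, and Flt3l 4.32 ± 1.31 RPKM. None of the 6 was called. Il34, a further ligand of CSF1R, measured 0.851 and 1.28 RPKM and was the 1 pathway gene not detected in both uteri, for which it was named after its values were seen.

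Markers of cell types known for KIT were measured as well. Of 9 mast cell markers, 7 were detected in both uteri and their summed level was 66.3 and 71.4 RPKM. Gata2, which other uterine cells also use, held most of it at 38.8 ± 0.491 RPKM (SD, n = 2). The mast cell protease genes Cma1, Mcpt4 and Cpa3 measured 7.38 ± 0.870, 6.43 ± 1.64 and 5.83 ± 1.13 RPKM on 20 to 41 reads per library. The genes for the IgE receptor subunits were near 0, with 1 read in each uterus for Fcer1a and 0 and 1 read for Ms4a2. Kit, at -0.23 on the log2 scale, was not called. The log2 differences of the 5 protease genes were -0.24 for Cma1, 0.52 for Mcpt4, 0.39 for Cpa3, 0.73 for Tpsb2 and 0.25 for Tpsab1. That of Gata2, the marker with the most reads (487 and 531), was -0.03. That of Mitf, on 77 and 98 reads, was 0.19. The list's median log2 difference was 0.25, beside 0.0007 over all genes whose mean reached 1 RPKM. None of the 7 markers tested was called, so no direction is read for the list.

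Of the markers of interstitial cells of Cajal, Ano1 measured 52.0 ± 0.797 RPKM (SD, n = 2) and Etv1 1.46 ± 0.224 RPKM. Of 5 melanocyte markers, Dct, Tyrp1 and Mlana were listed at 0 in both uteri, Sox10 measured 0.385 and 0.520 RPKM, and Tyr 4.10 and 2.91 RPKM on 52 and 41 reads. A gene that cells in general use, Rpl26, was also listed at 0, so a listed 0 is not read as absence. Which cells carried the Kit, Ano1 or Etv1 reads was not tested.

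Platelets and their precursors are a further known source of PDGF. Of their 5 markers, Ppbp and Gp9 were listed at 0 in both uteri, Gp1bb measured 0.5004 and 0.451 RPKM, Itga2b 1.67 and 1.37 RPKM, and Pf4 5.77 and 1.998 RPKM on 13 and 5 reads, which was not called. The list summed to 7.94 RPKM in uterus 1 and 3.82 RPKM in uterus 2, mostly from Pf4. Pdgfb, at a log2 difference of 0.15 (-0.34 to 0.65), was not called, and the part of platelet RNA in its level was not tested. Endothelium markers, beside Pdgfb, had a median of 40.2 RPKM in uterus 1 and 40.04 RPKM in uterus 2, and Kdr was the 1 gene of 5 called, against 4.7% of all genes and 7.91% of those with at least 200 reads in sum, as Kdr has.

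**Figure D4:**
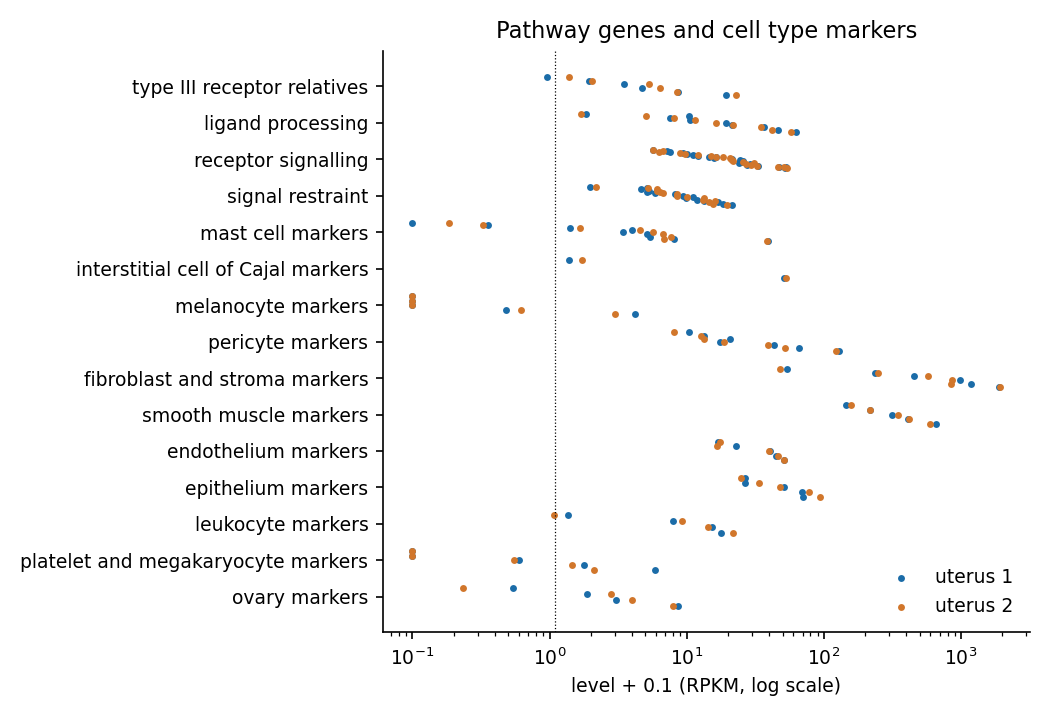
Level plus 0.1 (RPKM, log axis) of every gene in the pathway and marker lists; each gene has a point for uterus 1 and a point for uterus 2, and the dotted line is the detection threshold of 1 RPKM. Signalling genes sit between 5.58 and 52.8 RPKM on average, and 3 melanocyte and 2 platelet markers sit at the left edge, where a value of 0 is drawn.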

How the data were processed

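Each gene's expression was normalized to RPKM by the authors, per the labels, and the deposited tables hold 1 column of RPKM per library. The submitters' processing notes name TopHat, edgeR and mm9 without roles; the annotation, counting program and use of strand are not given in the sources used here. Values were identical in the plain and the annotated table for all 22740 genes. Places come from the annotated table, whose starts were read as counted from 0 and are given counted from 1.

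Reads were recovered with Python 3.11.15 and scipy 1.17.1. The commonest lowest step among entries shorter than 400 bases gave scaling totals of 3834174 and 4256101. For each gene the ratio of the scaled values was matched to whole reads (relative tolerance 1e-11), and reads were multiplied until the implied length was whole (within 1e-06 bases) and nearest that of the GENCODE M1 transcript on NCBIM37 whose ends lie closest to the deposited span. Of 15081 genes above 0 in both libraries with such a transcript, 46.2% had exactly its length and 66.4% came within 1%. For the rest the number of reads is less certain. The recovered reads of uterus 2, 4260806 in sum, exceed its scaling total, and the reason was not tested. At the smallest possible reads the exact binomial test called 3.90% of 14896 genes. The exact binomial test used genes with at least 6 reads in sum and the ratio of the scaling totals. Recovery and test were run on simulated data with 200 genes changed 2-fold. There 97.6% of genes with reads were recovered exactly, and 186 changed and 9 unchanged genes were called. The simulation does not show what share of the real table's read numbers is right, nor how far animals differ. No test between groups exists with 1 group, and n = 2 throughout.

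Named genes are all members, the 4 highest genes of each pathway list, every gene of these lists called and every one below 1 RPKM in both libraries. Il34 falls outside this rule and was named after its values were seen. The neighbours Chic2, Gm19583 and Gsx2, Ddi1 within the span of Pdgfd, and Rpl26 fall outside it as well. Of the 11 marker lists, genes were named from their fixed members after values were seen. Members and lists were chosen with earlier results of these data known. Alternatives covered thresholds, pseudocounts, filters, centring, the TPM scale, single libraries and settings of the test. The series' design text gives the 2 mice as independent.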

Additional observations from a re-analysis of the deposited data

How the results depend on the processing

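All 8 genes were detected at 0.5 and 2 RPKM, on the TPM scale and in either library alone, and none was 2-fold apart under any of the 6 settings of pseudocount, filter, centring and scale. The exact binomial test called Pdgfrb under each of its 5 alternatives, at adjusted p-values of 0.00121 to 0.00154. It called 1 gene in place of 2 at the smallest possible reads, where Pdgfc was lost (0.229); under the other 4 alternatives Pdgfc had an adjusted p of 0.0228 to 0.0293. Ranges over the counting intervals of both libraries, in place of library ranges, left 2 neighbouring pairs apart, against 6. The log2 difference of Pdgfc over Pdgfd reversed between single libraries, from -0.37 to 0.30. That of Kitl between the uteri turned to -0.00282 relative to genes of like GC, a setting added after seeing the data, as were the test on NM_ identifiers alone and the tests per gene. The TPM scale multiplies every level by construction. Means of 2 libraries move by less than 1 SD in either library by construction. Pdgfa, on 45 and 58 reads, and Pdgfb, on 64 and 79, are the values most limited by depth. No paired analysis was possible because the libraries form 1 group.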
